A study of Mus musculus with 19 samples.

Results

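The response of the fetal mouse cortex to an injection of thyroid hormone was compared between dams that drank a goitrogen, a drug that blocks hormone production by the thyroid, and dams that did not. The quantity examined is the interaction, which is the log2 change from hypo to hypo+ minus the log2 change from control to hyper. A positive interaction means a higher response under goitrogen, and a negative one a lower response under goitrogen. It draws on every array of the series, 19 of 19. The series' title puts the question as how goitrogen exposure alters the transcriptional response to the hormone.

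Each array measured RNA from the cerebral cortex of 1 wild type C57BL/6 fetus on gestational day 16, typed as female by PCR. The 4 groups shared a water supplement of 2% sucrose from gestational day 13 and 1 subcutaneous injection of the dam 12 hours before sacrifice. The control group (5 arrays) had no goitrogen and received saline vehicle. The hypo group (5 arrays) had 1% perchlorate and 0.025% methimazole in the water and received vehicle. The hypo+ group (5 arrays, named hypo_plus in the plots) had the same goitrogen water and received 25 µg T4 and 2.5 µg T3 per 100 g body weight. The hyper group (4 arrays) had no goitrogen and received 100 µg T4 and 10 µg T3 per 100 g. The hormone dose thus differed 4-fold between the responses compared, and goitrogen and dose cannot be told apart in the interaction. The labels name propylthiouracil in the title and perchlorate with methimazole in the treatment text, so the drug is called goitrogen here. The groups came from 20 dams, 5 per group, 1 array was removed by the authors for poor quality, and the labels do not say whether fetuses shared a dam. The p-values therefore cover only the variation among the fetuses measured.

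Thyroid hormone acts through nuclear receptors that bind DNA at target genes with or without hormone, repressing many of them when empty and activating them when T3 is bound. The T4 in blood enters the brain through transporters and is turned into T3 by a deiodinase, and in the fetus it comes in part from the mother. In the developing cortex the hormone is known for effects on neuronal migration, layering and later on myelination. Its target genes include transcription factors such as Klf9 that in turn change the expression of others.

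Markers of cortical neurons were strong in all groups: all 12 genes of that list were measured, and the mean signal of Tubb3, a neuronal tubulin, was 6323, 6048, 6471 and 6283 in control, hypo, hypo+ and hyper, while that of Neurod6, a transcription factor of cortical excitatory neurons, was 3699, 4164, 3133 and 3925. In bulk tissue, fewer cells of a type and less RNA per cell cannot be told apart. The median signal of an array was 73.1 to 106.0. Precision is limited by the number of arrays. The arrays of hypo+ replicate 1 and hyper replicate 4 went against the description of the fetuses as female, with Ddx3y, a gene of the Y chromosome, at 696 and 547 against 8.8 to 11.3 on the other 17. The array of hypo replicate 4 stood apart from the other hypo arrays in genes of dorsal cortex and in the hypothalamic genes Sim1 and Hmx3, as given below. Named genes that crossed the threshold without these arrays are given with both values. Hypo replicate 4 was singled out because leaving it out moved the gene count most, so passing without it is no separate evidence. List medians that moved by over 1.5 times without 1 array are given with their range, the Y-linked list aside.

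The interaction passed the threshold, an adjusted p under 0.05 in limma's test over all genes, in 2 of 17967 genes, which is 0.0111% of them. Both were negative: Klf9 and Sema3c had a large response to the high dose without goitrogen and a small one to the low dose under goitrogen. No gene passed in the positive direction. At an unadjusted p under 0.05 there were 1399 genes, 7.79% of those tested, of which 701 were positive (3.9%) and 698 negative (3.88%). Probe sets tested one by one gave 6 of 45037 (0.0133%), 1 positive (0.00222%) and 5 negative (0.0111%). At an unadjusted p under 0.05 there were 2925 (6.49%), of which 1475 were positive (3.28%) and 1450 negative (3.22%).

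Across genes, the interaction had a standard deviation of 0.20 on the log2 scale and a median standard error of 0.15. The response under goitrogen had a standard deviation of 0.17 across genes and the response without it 0.14, with median standard errors of 0.10 and 0.11. The responses, which rest on separate arrays, had a Pearson correlation of 0.18 and a Spearman correlation of 0.20 across the 17967 genes, given as a description since genes are not independent. Of the 1399 genes at an unadjusted p under 0.05, 952 (68.0%) had the larger absolute response under goitrogen and 1192 (85.2%) had responses of opposite sign. Over all genes these numbers were 9656 (53.7%) and 7699 (42.9%). The 1399 genes were picked for a difference between their responses, which by itself favours opposite signs. The share of opposite signs among them is therefore no separate evidence.

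The hormone response under goitrogen passed in 283 genes (1.58%) and the response without goitrogen in 8 (0.0445%). Of the 283, none passed the interaction, 165 had an unadjusted interaction p under 0.05, and 276 had the larger absolute change under goitrogen. Of the 8, both Klf9 and Sema3c passed the interaction, 6 had an unadjusted p under 0.05, and all 8 had the larger absolute change without goitrogen. These counts describe where the interaction lies and are no separate evidence, because the interaction is built from the same changes. A gene past the threshold in 1 response and not in the other was therefore shown to differ only for Klf9 and Sema3c.

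**Figure D1:**
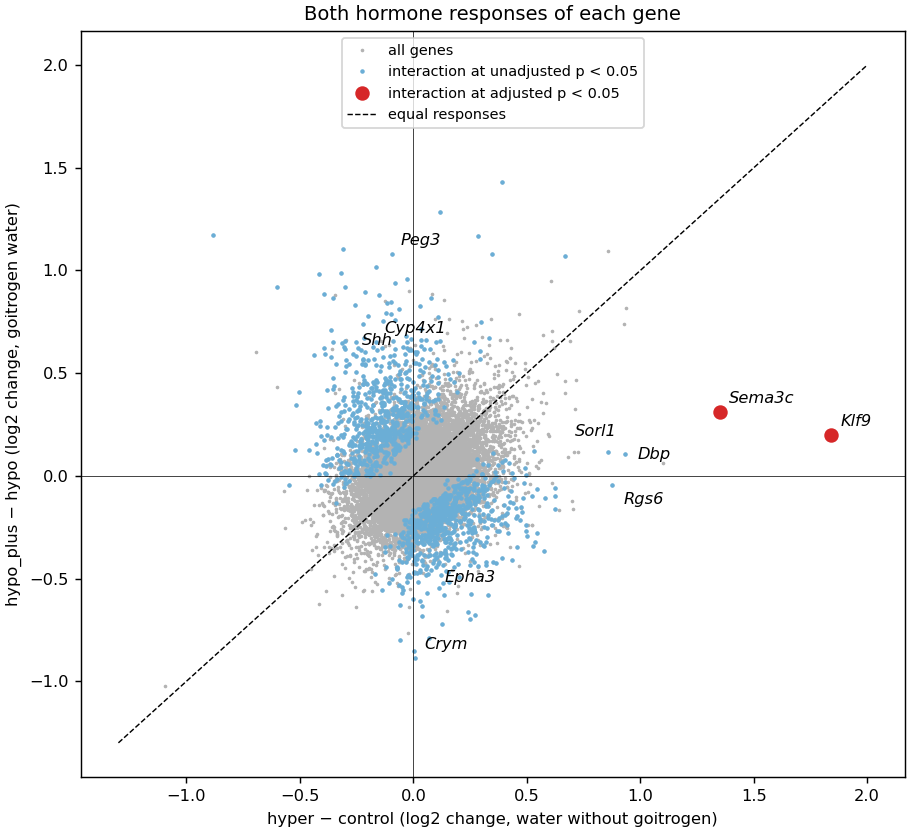
Log2 change of each of 17967 genes after hormone without goitrogen (hyper minus control, horizontal axis) and under goitrogen (hypo_plus minus hypo, vertical axis). Each point is 1 gene, blue points have an unadjusted interaction p under 0.05, red points pass the adjusted threshold, and the dashed line marks equal responses. Klf9 and Sema3c lie far to the right of the line, at 1.84 and 1.35 without goitrogen against 0.20 and 0.31 under goitrogen.

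Klf9, a Krüppel-like transcription factor and direct target of thyroid hormone receptors, had the interaction of smallest p. Its signals were 142, 103, 113, 164 and 129 in control, 138, 143, 151, 155 and 153 in hypo, 205, 152, 149.5, 189 and 181 in hypo+ and 521, 487, 449 and 765 in hyper. All 4 hyper arrays lay above all 15 other arrays, whereas the hypo+ arrays lay partly within the range of the hypo and control arrays. The response was 0.20 ± 0.12 (SE) under goitrogen and 1.84 ± 0.13 without it on the log2 scale. The interaction was −1.65 ± 0.18 (SE), with a 95% interval of −2.02 to −1.27 and limma adjusted p = 0.000441. In the vehicle groups hypo minus control was 0.16, and in the injected groups hypo+ minus hyper was −1.48. Without both arrays with Y-linked signal the interaction was −1.54 (adjusted p = 0.000139), and without hypo replicate 4 it was −1.63.

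Klf9 was measured by 7 probe sets. The 3 brightest passed the threshold over all probe sets, with interactions of −1.65, −1.31 and −1.49 and limma adjusted p of 0.000829, 0.000475 and 0.0124. The third of these had mean signals of 49.4 in control, 39.7 in hypo, 76.0 in hypo+ and 317 in hyper. The 4 dimmer probe sets, with mean signals of 12.9 to 52.8 over the 19 arrays, gave −0.36, −0.31, −0.25 and 0.06 and did not pass.

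Sema3c, which encodes a secreted semaphorin that guides axons and migrating cells, was the other gene past the threshold. Its signals were 931, 925, 805, 936 and 1036 in control, 639.9, 855, 909, 848 and 1032 in hypo, 1087, 1122, 935, 1123 and 1032 in hypo+ and 2247, 2305, 2438 and 2645 in hyper. The 4 hyper arrays again lay above every other array, and 4 of the 5 hypo+ arrays lay above all hypo arrays, with the highest hypo array at 1032 and the lowest hypo+ array at 935. Its response was 0.31 ± 0.10 (SE) under goitrogen and 1.35 ± 0.10 without it. The interaction was −1.04 ± 0.14 (SE; 95% interval −1.34 to −0.74, limma adjusted p = 0.00706). It did not pass without both arrays with Y-linked signal, at −1.005 with adjusted p = 0.0738, or with each array centred on its median (adjusted p = 0.101). The other probe set of the gene, dimmer by mean signal (214 against 1255), gave −0.9997 with adjusted p = 0.0551 over all probe sets. On that probe set the response was −0.19 ± 0.11 (SE) under goitrogen and 0.81 ± 0.12 without it. The probe sets thus differed in the sign of the small response under goitrogen.

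**Figure D2:**
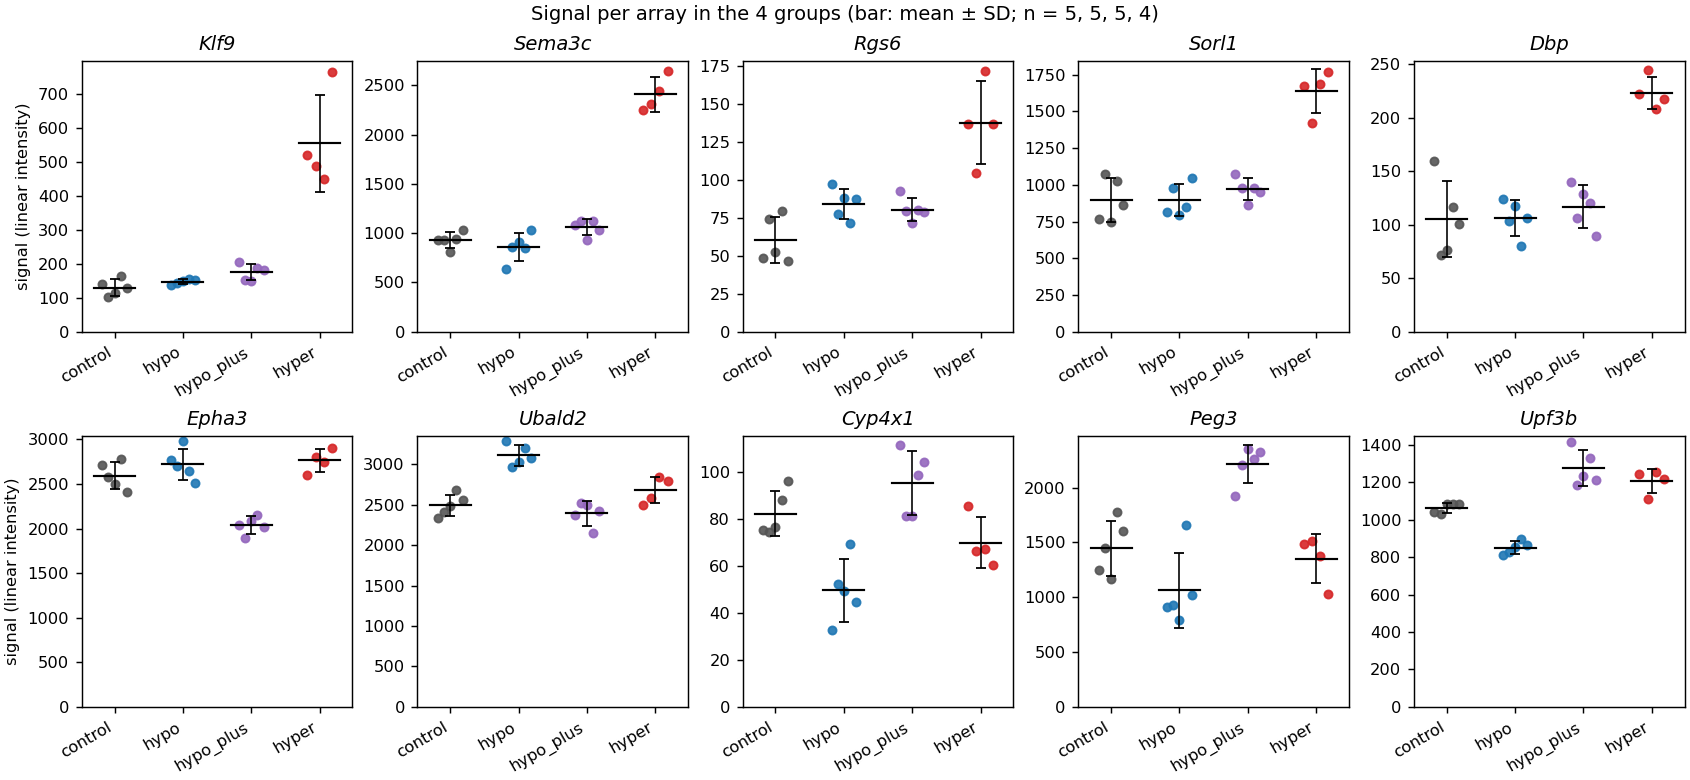
Signal of 10 genes on each array (linear intensity, vertical axis from 0) in control, hypo, hypo_plus and hyper. Points are arrays, the horizontal bar is the group mean and the error bar 1 SD (n = 5, 5, 5 and 4). In Klf9, Sema3c, Sorl1, Rgs6 and Dbp the hyper arrays lie above those of the other groups, while in Epha3 the hypo_plus arrays lie lowest and in Peg3 highest. Only Klf9 and Sema3c pass the adjusted threshold.

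Further genes of the hormone-induced list had a negative interaction without passing, which in Rgs6, Sorl1 and Dbp had the same form. Rgs6, a regulator that shortens G protein signalling, read 48.4, 74.4, 52.8, 79.4 and 46.8 in control, 96.9, 77.3, 87.8, 71.8 and 87.2 in hypo, 92.7, 79.2, 71.2, 80.0 and 78.7 in hypo+ and 137, 105, 172 and 137 in hyper. All hyper arrays exceeded all hypo+ arrays, and the hypo+ and hypo arrays overlapped. Its interaction was −0.92 ± 0.16 (SE; interval −1.26 to −0.59, limma adjusted p = 0.0713), from −0.05 under goitrogen and 0.88 without it. Sorl1, a sorting receptor of the VPS10 family, had control arrays at 744 to 1076, hypo arrays at 791 to 1043, hypo+ arrays at 864 to 1071 and hyper arrays at 1418 to 1770.1. Only the hyper arrays stood clear of the others, and the interaction was −0.74 (interval −1.06 to −0.43, limma adjusted p = 0.179). Its 3 probe sets gave −0.61 to −0.93, and both probe sets of Rgs6 were negative.

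Dbp, a transcription factor whose expression follows the circadian clock, had hyper arrays at 223, 244, 208 and 217, hypo+ arrays at 140.3, 106, 129, 120.0 and 89.5, hypo arrays at 124, 103, 117, 80.0 and 106 and control arrays at 159.8, 72.1, 76.0, 117 and 101. The hyper arrays were the highest 4, and the other groups overlapped. The interaction was −0.82 (interval −1.25 to −0.40, limma adjusted p = 0.281). Camk4, a calcium-dependent kinase gene, showed 0.54 without goitrogen and −0.06 under goitrogen, an interaction of −0.61 (limma adjusted p = 0.409). Its sign depended on the probe set, since the median over its 5 probe sets gave 0.05. Hr, a corepressor that binds thyroid hormone receptors, had hypo+ arrays at 36.5 to 81.3 and hyper arrays at 72.9 to 86.9, groups that overlapped. Its responses were −0.19 under goitrogen and 0.27 without it. Its interaction was −0.46 (interval −0.84 to −0.08, limma adjusted p = 0.521), and of its 2 probe sets 1 had the opposite sign at 0.05.

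In further negative interactions, as in Hr, the change under goitrogen was itself negative. Epha3, an ephrin receptor that repels growing axons, read 2709, 2582, 2499, 2775 and 2409 in control, 2769, 2703, 2982, 2643 and 2513 in hypo, 2041, 1893, 2087, 2158 and 2012 in hypo+ and 2602, 2806, 2748 and 2905 in hyper. All 5 hypo+ arrays lay below all 14 arrays of the other groups, which overlapped with each other. Its responses were −0.41 under goitrogen and 0.09 without it, and the interaction was −0.50 ± 0.08 (SE; limma adjusted p = 0.0696). All 4 of its probe sets were negative, from −0.65 to −0.50. Ubald2 read 2337, 2408, 2489.6, 2678 and 2553 in control, 3290.0, 2962, 3025, 3199 and 3078 in hypo, 2376, 2525, 2497, 2144 and 2416 in hypo+ and 2499, 2583, 2841 and 2787 in hyper. Here the 5 hypo arrays lay above every array of the other groups, and the hypo+ arrays overlapped those of control. The interaction of Ubald2 was −0.48 ± 0.09 (SE; limma adjusted p = 0.085), with hypo minus control at 0.32. Klhl25, an adaptor of a ubiquitin ligase, had responses of −0.24 and 0.35 and an interaction of −0.59 (limma adjusted p = 0.135). Epha3, Ubald2, Klhl25 and Rgs6 passed without hypo replicate 4, at adjusted p of 0.0261, 0.0486, 0.0329 and 0.0261.

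The 5 positive interactions of smallest p also missed the threshold. Peg3, a paternally expressed imprinted zinc finger gene, read 1250.4, 1444, 1161, 1773 and 1602 in control, 913, 926, 790.3, 1657 and 1023 in hypo, 1925, 2208, 2352, 2257 and 2326 in hypo+ and 1487, 1512, 1374 and 1027 in hyper. The 5 hypo+ arrays exceeded every array of control, hypo and hyper, and hypo replicate 4 lay above the other hypo arrays. The responses were 1.08 under goitrogen and −0.10 without it, an interaction of 1.18 ± 0.23 (SE; interval 0.69 to 1.67, limma adjusted p = 0.161). Without hypo replicate 4 it was 1.35 and passed (adjusted p = 0.00402). Of its 4 probe sets 2 were positive and 2 slightly negative, the lowest at −0.02.

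Blcap, the host gene of the imprinted transcript Nnat, and Sorcs3, a VPS10 receptor like Sorl1, had the same order of groups as Peg3. Blcap had hypo+ arrays at 1619 to 1837 against 1082 to 1396 in hypo, 1332 to 1563 in control and 1209 to 1545 in hyper. Sorcs3 had hypo+ arrays at 236 to 281 against 142 to 208, 181 to 230.3 and 169.9 to 209.8. In both genes 5 of 5 hypo+ arrays lay above all other arrays. The interactions were 0.57 (limma adjusted p = 0.161) and 0.63 (limma adjusted p = 0.179), and without hypo replicate 4 both passed, at 0.0325 and 0.0261.

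In Cyp4x1 and Upf3b the hypo arrays were the low ones. Cyp4x1, a cytochrome enzyme gene, read 75.4, 74.4, 76.7, 88.1 and 96.1 in control, 32.6, 52.4, 49.4, 69.4 and 44.5 in hypo, 111, 81.1, 81.3, 98.8 and 104 in hypo+ and 85.6, 66.2, 67.4 and 60.2 in hyper. All 5 hypo arrays lay below all control arrays, and hypo minus control was −0.49. The interaction was 0.82 ± 0.15 (SE; interval 0.50 to 1.14, limma adjusted p = 0.126) and passed without hypo replicate 4 (adjusted p = 0.0148). Upf3b, a factor of nonsense-mediated mRNA decay, read 1043, 1029, 1083, 1085 and 1084 in control, 809.9, 825, 856, 896 and 866 in hypo, 1417, 1187, 1236, 1328 and 1211 in hypo+ and 1246, 1111, 1253 and 1219 in hyper. The hypo arrays lay below all control arrays, and hypo+ and hyper arrays lay above all control arrays. Its responses shared a sign, 0.56 under goitrogen and 0.18 without it, and its interaction was 0.39 ± 0.08 (SE; limma adjusted p = 0.179).

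**Figure D3:**
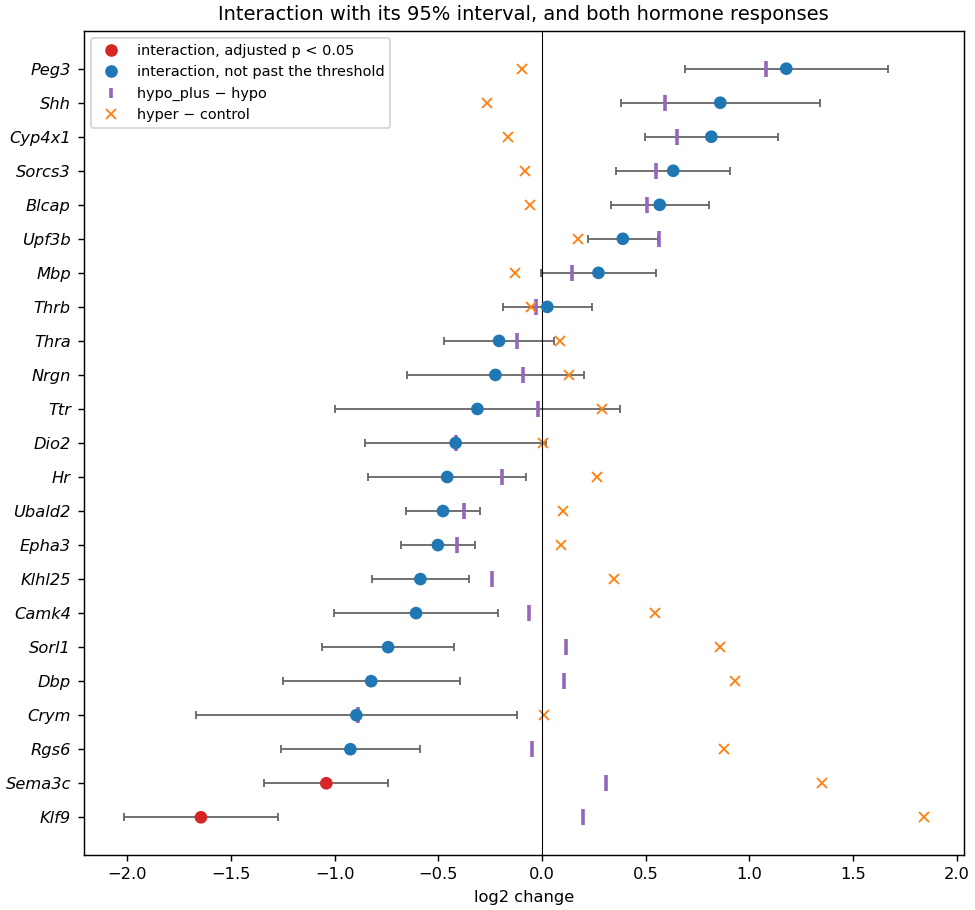
Interaction of the named genes with its 95% interval (log2 change, horizontal axis), with the response under goitrogen as a purple bar and the response without goitrogen as an orange cross. Red points (Klf9 and Sema3c) pass the adjusted threshold. The Klf9 and Sema3c intervals end at −1.27 and −0.74, while those of Thrb, Thra, Nrgn, Ttr, Dio2 and Mbp include 0.

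Genes that carry, convert or bind the hormone did not pass. Dio2, the deiodinase that makes T3 from T4 in brain, read 59.9, 57.6, 35.0, 53.4 and 49.4 in control, 83.0, 68.6, 75.3, 39.7 and 81.0 in hypo, 58.6, 54.2, 29.7, 36.6 and 40.6 in hypo+ and 38.5, 38.6, 70.1 and 60.2 in hyper. The hypo arrays other than replicate 4 lay above all 5 hypo+ arrays, and hyper overlapped both. Its interaction was −0.42 (interval −0.85 to 0.02, limma adjusted p = 0.666). Crym, mu-crystallin, which binds T3 in the cytosol, read 268, 101, 157, 286 and 200.1 in control, 315, 267, 308, 140.2 and 440.4 in hypo, 140.3, 104, 120.4, 221 and 115 in hypo+ and 176, 191, 158 and 258 in hyper. Hypo replicate 4 was the lowest hypo array, and without it the interaction moved from −0.90 to −1.11 (limma adjusted p = 0.537 and 0.218).

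The receptor genes did not pass either. Thra, the main receptor of fetal brain, had group ranges of 2706 to 3245, 3127 to 4174, 2751 to 3573 and 2902 to 3598 in control, hypo, hypo+ and hyper, and an interaction of −0.21 (interval −0.47 to 0.06). Thrb, the other receptor, was dim, at 20.2 to 39.2 over all arrays, with an interaction of 0.03 (interval −0.19 to 0.24), whose sign turned when hypo replicate 1 or hyper replicate 2 was left out. Ttr, the carrier protein made by choroid plexus, ranged from 5282 to 16947 in control alone, and its interval was −0.999 to 0.38. Mbp, a myelin protein, and Nrgn, a postsynaptic calmodulin-binding protein, had interactions of 0.27 (interval −0.0049 to 0.55) and −0.22 (interval −0.65 to 0.20). None of these intervals shows that the responses were equal.

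Of 28 measured genes of the hormone-induced list, Klf9 and Sema3c passed, 12 had a positive interaction, and the median was −0.12 against −0.02 over all genes, of which 45.2% were positive. At an unadjusted p under 0.05 there were 7 negative members, which are Klf9, Sema3c, Rgs6, Dbp, Sorl1, Camk4 and Hr, and 1 positive, Shh, against 3.88% and 3.9% of all genes. Earlier results of these data were known when this list was made, so its direction is no independent evidence. The 14 measured hormone-repressed genes had a median of 0.08, with 10 positive and 0 past the threshold. The 20 genes of receptors, coregulators and transport had a median of −0.09, with 5 positive and 0 past the threshold. The 14 measured clock genes had a median of −0.12 with 3 positive, and Dbp and Nr1d2, a clock repressor (−0.57), were the members at an unadjusted p under 0.05. With 1 array left out the median of the induced list lay between −0.18 (without hyper replicate 4) and −0.07 (without hyper replicate 1), that of receptors, coregulators and transport between −0.16 (without hyper replicate 4) and −0.04 (without control replicate 3), and that of the clock list between −0.17 (without hyper replicate 4) and −0.01 (without hypo replicate 1).

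Among the 26 pathway lists and 9 lists of cell type markers, 2 had a member past the threshold, hormone-induced genes (Klf9 and Sema3c) and axon guidance (Sema3c). Of the pathway lists 11 had a positive and 15 a negative median. Some genes, such as Sema3c, Dbp and Shh, belong to several lists, so the lists are not independent of each other. The lists of dorsal cortex, upper layer and cortical neurons had the same lowest value, −0.77. Over all genes 45.2% had a positive interaction. At an unadjusted p under 0.05, 3.9% of all genes were positive and 3.88% negative, the shares to set beside each list's counts here and below. The list farthest below 0 was that of dorsal cortex neurons, with a median of −0.51 and 15 of 15 members negative. Its median response was −0.35 under goitrogen and 0.10 without it. At an unadjusted p under 0.05 there were 5 members, among them Fezf2 (−0.74), a factor of subcortical projection neurons, Nfib (−0.60), Neurod1 (−0.59) and Neurod2 (−0.56), factors of neuronal differentiation. The adjusted p of these 4 lay between 0.454 and 0.491. The marker list of cortical neurons, in contrast, had a median of 0.01 with 6 of 12 positive. With 1 array left out that median lay between −0.10 (without hypo replicate 4) and 0.08 (without hyper replicate 1). It was −0.09 without both arrays with Y-linked signal.

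Fezf2 read 1611, 1499.8, 1294, 1631 and 1405 in control, 1884, 1536, 1631, 1093 and 2449 in hypo, 1377, 817, 807, 1062 and 763 in hypo+ and 1549, 1139, 1307 and 1764 in hyper. The hypo+ arrays other than replicate 1 were the lowest of all, and hypo replicate 4 was the lowest hypo array. The same was seen in Nfib, where hypo+ arrays read 5081, 3370.3, 3537, 4191 and 3562 and hypo arrays 5559, 6519, 6456, 4252 and 7373. The mean log2 level of the 15 dorsal genes was 9.93 on hypo replicate 4, the rest of the hypo group lying at 10.47 to 10.82, and 9.90, 9.96, 9.96, 10.27 and 10.45 on the hypo+ arrays in rising order. The list's median was −0.68 without hypo replicate 4 and −0.52 without the arrays with Y-linked signal.

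Upper layer genes had a median of −0.27, with 3 of 11 positive and 5 negative at an unadjusted p under 0.05, among them Unc5d (−0.58), of the netrin receptor family. Deep layer genes had a median of −0.02, with 6 of 12 positive, and the sign turned in 8 of 32 settings. Radial glia and intermediate progenitor genes had a median of −0.21 with 4 of 17 positive, and cell cycle genes −0.18 with 3 of 22 positive. No member of these lists passed. With 1 array left out the deep layer median lay between −0.10 (without hypo replicate 4) and 0.08 (without hypo replicate 5), and the cell cycle median between −0.26 (without control replicate 1) and −0.11 (without hypo replicate 1). With the Y-signal pair, hypo+ replicate 1 and hyper replicate 4, removed, the deep layer median was −0.12.

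Lists of ventral forebrain lay on the positive side. Interneuron genes had a median of 0.23 with 16 of 18 positive, and genes of striatum and ganglionic eminence 0.25 with 11 of 15 positive. None passed, and 3 and 5 were positive at an unadjusted p under 0.05. Among these were Calb2, the calretinin gene (0.75), Dlx1, a homeobox gene of interneuron progenitors (0.61), Gad2, which makes the transmitter GABA (0.57), Isl1, a factor of striatal neurons (0.63), Tac1, the substance P precursor (0.59), Six3, a forebrain homeobox gene (0.52), and Drd2, a dopamine receptor (0.33). Their adjusted p lay between 0.422 and 0.619.

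Six3 had hypo+ arrays at 305, 317, 403, 330.3 and 339 against 239, 208, 173, 262 and 234 in hypo, 226, 193, 188, 291 and 253 in control and 267, 231, 251 and 185 in hyper. All 5 hypo+ arrays exceeded all others. Over 32 other settings of the processing and arrays used, the interaction of Six3 lay between 0.02 and 0.64. In Isl1 the hypo+ arrays read 1659 to 2285, and hypo replicate 4, at 2259.9, exceeded the other hypo arrays, which lay at 826 to 1269. In Gad2 the hypo+ arrays ranged from 760.0 to 1343 and overlapped all other groups. Maf, a transcription factor also used by interneurons, was the only interneuron gene negative at an unadjusted p under 0.05 (−0.59).

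Markers of hypothalamus and thalamus, tissue next to the cortex that a dissection could include, had a median of 0.30, with 16 of 18 positive, 4 of them at an unadjusted p under 0.05. Their summed signal was 2996 to 7626 in hypo+, 4461 to 6158 in hypo, 3280 to 8499 in control and 4158 to 5378 in hyper. Sim1, a defining hypothalamic factor, read 42.8, 46.7, 22.8, 77.1 and 19.6 in control, 14.2, 28.0, 25.5, 85.2 and 21.9 in hypo, 115, 17.0, 174, 185 and 73.0 in hypo+ and 20.2, 105, 17.5 and 13.9 in hyper. The highest values stood on 4 of the 5 hypo+ arrays, control replicate 4, hypo replicate 4 and hyper replicate 2, and every other array read 46.7 or less. Hmx3, also hypothalamic, read 86.3, 27.5, 90.7, 107 and 66.2 in hypo+ and 14.5, 15.7, 16.2, 74.6 and 14.7 in hypo, with hypo replicate 4 again apart. It read 12.4, 21.9, 19.4, 44.3 and 72.0 in control and 39.2, 24.6, 17.5 and 11.0 in hyper. Control replicate 5 was thus within the hypo+ range in Hmx3, though it was low in Sim1 (19.6). The interactions of Sim1 (1.18) and Hmx3 (1.11) had limma adjusted p of 0.633 and 0.473. With 1 array left out the list's median lay between 0.18 (without hyper replicate 4) and 0.59 (without hypo+ replicate 2). Leaving out the Y-signal pair gave 0.17, and leaving out hypo replicate 4 gave 0.33. The array whose removal gave the highest median, hypo+ replicate 2, is the hypo+ array with Sim1 at 17.0. The part of such tissue in the dorsal, ventral and imprinted gene values was not tested.

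Imprinted genes had a median of 0.26, with 15 of 19 positive against 45.2% of all genes. At an unadjusted p under 0.05, 6 were positive, against 3.9% of all genes. These were Peg3, Dlk1 (1.02), a Notch-like membrane protein, and Rian (0.88), a noncoding RNA of the same cluster. Usp29 (0.58), Ndn (0.52), a growth-restraining protein of neurons, and Zim1 (0.43) were the others. Dlk1 read 624, 721, 510.1, 599.5 and 512 in control, 461, 422, 296, 1309 and 447 in hypo, 934, 679, 1474, 1412 and 792 in hypo+ and 558, 726, 562 and 413 in hyper. Of the hypo+ arrays 4 of 5 exceeded all control and hyper arrays, and hypo replicate 4 stood far above the other hypo arrays. Rian read 1459, 1266, 1754, 2146 and 1533 in hypo+ and 791, 1148, 913, 1140.4 and 687 in hypo, groups that did not overlap. The list's median was 0.33 without hypo replicate 4. In Dlk1 and Ndn the interaction moved to 1.35 and 0.65 without that array, with adjusted p of 0.0887 and 0.0736.

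Choroid plexus markers had a median of −0.38, with 4 of 14 positive and none at an unadjusted p under 0.05. The summed signal of the list was 6318 to 20486 in control, 16028 to 21971 in hypo, 16686 to 19489 in hypo+ and 11223 to 19012 in hyper. Control arrays thus spanned the widest range. Markers of hippocampus and cortical hem had a median of −0.21 with 1 of 12 positive. Microglia markers had a median of −0.01 with 6 of 13 positive, and C1qa, a complement gene, was at −0.43 (limma adjusted p = 0.409). Endothelial (0.06), erythroid (0.13) and meningeal (−0.13) markers had 11 of 15, 6 of 8 and 6 of 14 positive, and no member passed. Leaving out 1 array placed the median of choroid plexus between −0.58 (without hyper replicate 1) and −0.25 (without hyper replicate 4), of microglia between −0.08 (without control replicate 5) and 0.04 (without control replicate 2), of endothelium between 0.02 (without control replicate 4) and 0.12 (without control replicate 3), of erythroid cells between 0.01 (without hyper replicate 4) and 0.23 (without control replicate 2) and of meninges between −0.23 (without hypo replicate 1) and 0.15 (without hyper replicate 1). With the Y-signal pair, hypo+ replicate 1 and hyper replicate 4, removed, the choroid plexus median was −0.24, the microglial −0.06, the endothelial −0.01, the erythroid −0.02 and the meningeal −0.22.

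**Figure D4:**
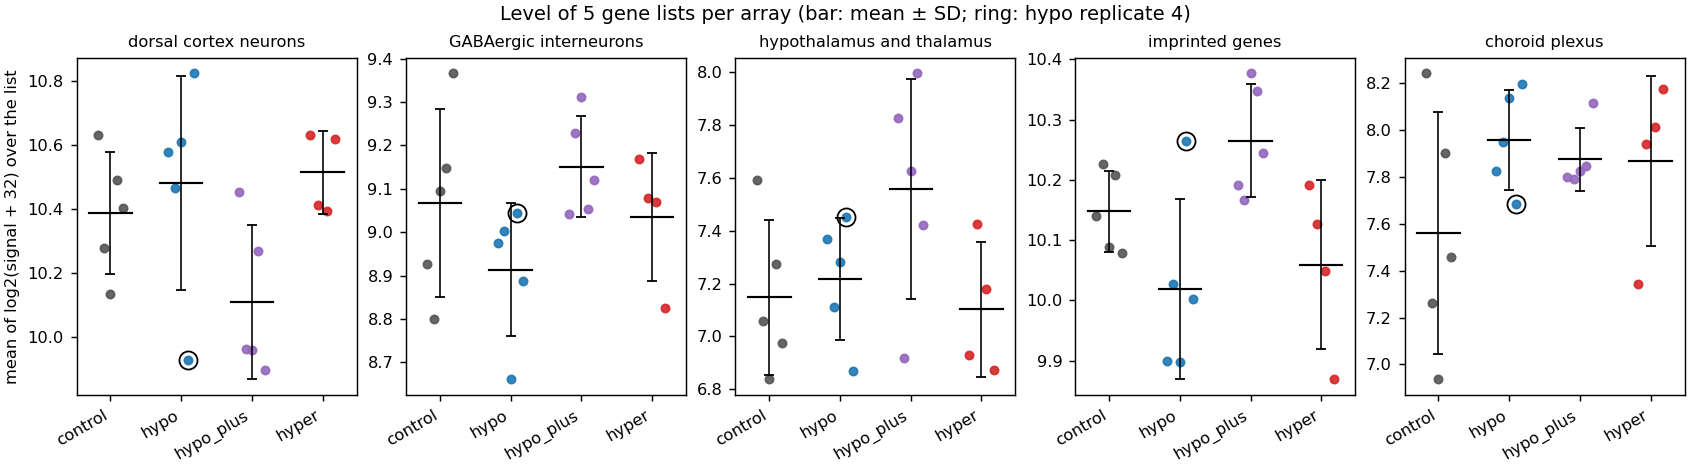
Mean log2(signal + 32) of 5 gene lists on each array (vertical axis) in control, hypo, hypo_plus and hyper, with points for arrays and bars for the group mean and 1 SD. The ring marks hypo replicate 4, which lies at 9.93 in dorsal cortex neurons, below the other hypo arrays, and above them in imprinted genes.

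**Figure D5:**
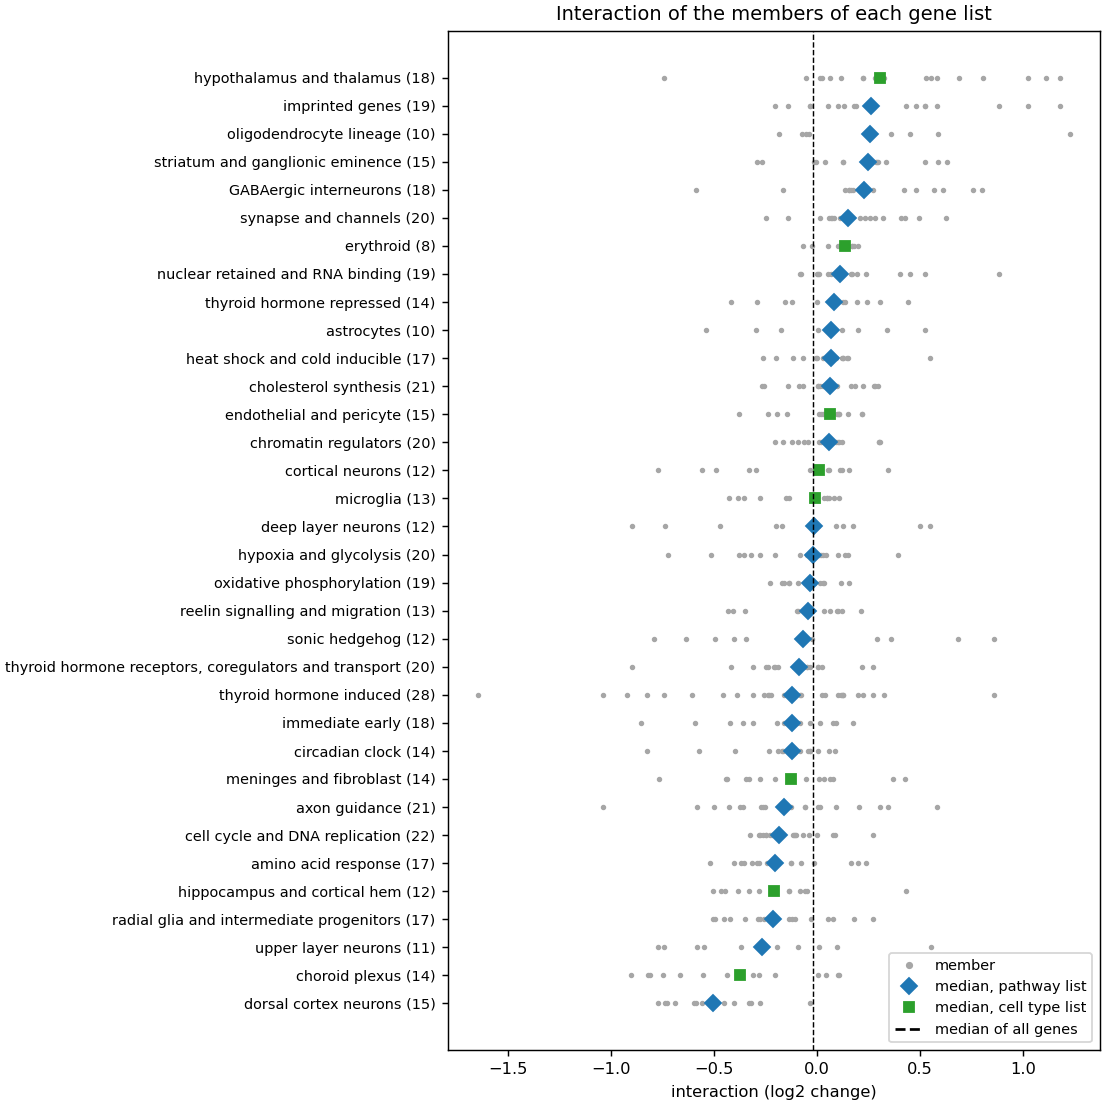
Interaction of the members of each gene list (log2 change, horizontal axis; number measured in brackets), with grey points for genes, diamonds for the median of pathway lists and squares for that of cell type lists. The dashed line is the median of all genes, −0.02. Medians run from −0.51 for dorsal cortex neurons to 0.30 for hypothalamus and thalamus, and the 2 points at −1.65 and −1.04 in the hormone-induced list are Klf9 and Sema3c.

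Axon guidance genes had a median of −0.16, with 7 of 21 positive. Besides Sema3c, 4 were negative at an unadjusted p under 0.05: Unc5d, Epha3, Sema3f (−0.38), another secreted semaphorin, and Epha5 (−0.36), an ephrin receptor whose hyper arrays at 2324, 2418, 2193 and 2276 lay above all others. Efna5, a ligand of such receptors, was the positive one (0.58). Sonic hedgehog genes had a median of −0.07 with 4 of 12 positive. The ligand Shh (0.86, interval 0.38 to 1.34, limma adjusted p = 0.343) and the receptor Ptch1 (0.68), itself a target of the pathway, were positive. The coreceptors Cdon (−0.79) and Gas1 (−0.64) were negative, each at an unadjusted p under 0.05. Leaving out 1 array placed the axon guidance median between −0.21 (without control replicate 4) and −0.10 (without control replicate 2) and the hedgehog median between −0.18 (without control replicate 1) and −0.02 (without hypo replicate 5).

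Ptch1 read 943, 888, 1110.0, 1036 and 974 in control, 787, 719.7, 726, 1113 and 689 in hypo, 1082, 1380.1, 1326, 1354 and 1222 in hypo+ and 948, 1204, 869 and 882 in hyper. Hypo replicate 4 was far above the other hypo arrays, and without it the interaction was 0.80 and passed (adjusted p = 0.0261). Shh read 233, 220.4, 352, 325 and 337 in control, 193, 216, 209.7, 343 and 241 in hypo, 300.5, 387, 472, 393 and 331 in hypo+ and 252, 279, 243 and 176 in hyper. Hypo replicate 4 was the highest hypo array here too, and the value without it was 0.98 (adjusted p = 0.0816). Its other probe set gave 0.06.

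Synapse and channel genes had a median of 0.15 with 18 of 20 positive, led by Syt1, a calcium sensor of vesicle release (0.63). Oligodendrocyte genes had a median of 0.26 with 6 of 10 positive, and Cnp, a myelin enzyme (0.59, limma adjusted p = 0.348), was the 1 at an unadjusted p under 0.05. Cnp read 664, 600.5, 469, 628 and 499 in hypo+ and 348, 400.0, 343, 454 and 357 in hypo, with no overlap, while control (422 to 544) and hyper (392 to 547) overlapped. Astrocyte genes had a median of 0.07 with 7 of 10 positive, and reelin signalling genes −0.04 with 6 of 13 positive. When 1 array was left out, the synapse median lay between 0.08 (without hypo replicate 1) and 0.23 (without control replicate 1), the astrocyte median between 0.03 (without hypo replicate 4) and 0.10 (without hyper replicate 2) and the reelin median between −0.06 (without hyper replicate 2) and −0.0009 (without hypo replicate 4).

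Transcripts retained in the nucleus and RNA binding genes had a median of 0.11 with 16 of 19 positive, and 3 were positive at an unadjusted p under 0.05. Malat1, a nuclear noncoding RNA, read 914, 1195, 1281, 1720.3 and 1413 in control, 692, 875, 979.9, 1505 and 1183 in hypo, 2198, 2315, 2069.6, 2245 and 2793 in hypo+ and 1518, 1484, 1493 and 1778 in hyper. The hypo+ arrays lay above all others, and its responses had the same sign, 1.17 under goitrogen and 0.28 without it. Its interaction was 0.88 ± 0.25 (SE; interval 0.36 to 1.40, limma adjusted p = 0.361). Over 32 other settings of the processing and arrays used, it lay between 0.16 and 1.02. Srrm2, a splicing protein, and Prrc2c, an RNA granule protein, also had positive responses in both settings and interactions of 0.45 and 0.40. Chromatin regulators had a median of 0.06 with 14 of 20 positive, and between 0.01 (without control replicate 4) and 0.12 (without control replicate 3) when 1 array was left out.

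No member of the lists of stress and metabolism passed. The amino acid response list was at −0.20 with 3 of 17 positive, and Ddit3, a stress transcription factor, at −0.40. Immediate early genes were at −0.12 with 4 of 18 positive. Nr4a3, a nuclear receptor induced by activity, read 698, 416, 403, 731 and 478 in hypo+ and 903, 924, 1335, 678 and 1203 in hypo, an interaction of −0.86 (limma adjusted p = 0.418). Over 32 other settings of the processing and arrays used, it lay between −0.99 and −0.28. The hypoxia list was at −0.02 with 8 of 20 positive, and held Ndrg1, a hypoxia-induced gene (−0.72, limma adjusted p = 0.281), and Egln3, an oxygen sensor (−0.52). In the other settings Egln3 lay between −0.62 and −0.21. In Ndrg1 the hypo+ arrays at 579, 462, 466, 579 and 419 lay below all hypo arrays, which read 738, 817, 853, 708 and 994. Oxidative phosphorylation (−0.04, 5 of 19 positive), cholesterol synthesis (0.06, 16 of 21) and heat shock genes (0.06, 12 of 17) completed the group. When 1 array was left out, the median of the amino acid list lay between −0.29 (without control replicate 1) and −0.13 (without hyper replicate 4), of hypoxia between −0.10 (without control replicate 1) and 0.01 (without control replicate 2), of oxidative phosphorylation between −0.05 (without control replicate 3) and −0.02 (without hypo replicate 4), of cholesterol synthesis between 0.03 (without hypo+ replicate 4) and 0.10 (without control replicate 2) and of heat shock between 0.01 (without control replicate 1) and 0.08 (without control replicate 4). With the Y-signal pair removed, the hypoxia median was −0.10 and that of cholesterol synthesis 0.03.

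The number of genes past the threshold depended on hypo replicate 4, the array whose removal moved it most. Without this array 25 genes passed in limma, 18 positive and 7 negative, in place of 2. The positive ones included Peg3, Ptch1, Cyp4x1, Sorcs3 and Blcap, and also AW551984 (1.85), Cxxc4, a Wnt antagonist (1.07), Plxnc1, a semaphorin receptor (1.05), Dpp6, a potassium channel subunit (1.05), Nova1, a neuronal splicing factor (1.01), Zdbf2, an imprinted gene (0.91), Chd5, a neuronal chromatin remodeller (0.86), and Hmx2, a hypothalamic homeobox gene (0.56). The negative ones were Klf9, Sema3c, Rgs6, Klhl25, Epha3, Ubald2 and Mycn, a growth-promoting transcription factor. Mycn was at −0.60, against −0.54 with all arrays (limma adjusted p = 0.179). In Cxxc4 hypo replicate 4 read 1045 while the rest of the hypo group ranged from 538 to 632. In AW551984 it read 1714 while they ranged from 412 to 707. Hypo replicate 4 lay outside the other hypo arrays in 21 of the 25 genes. In 20 it lay above them in a positive interaction or below them in a negative one. Leaving it out widens these interactions by itself, so their passing is no separate evidence. No label gives a reason to leave this array out, so the count of 2 is the one reported.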

How the data were processed

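The authors deposited probe set intensities on a linear scale for 19 arrays, per the file headers. The submitters' processing notes list MAS5 and RMA, with no statement of which produced these intensities. The labels name a rat array, while the probe sets are those of mouse.

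The arrays carried 45101 probe sets, of which 64 controls were removed. Names were updated through a GRCm38.p6 gene table, and 34075 probe sets with 1 current gene gave 17967 genes, each represented by its brightest probe set. Values were transformed to log2(value + 32), which understates changes of dim genes, and 4 group means were fitted with lmFit and eBayes of limma 3.58.1 in R 4.3.3 (15 residual degrees of freedom, two-sided, Benjamini-Hochberg over all genes). The fit was tested on simulated data.

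Lists and named genes were chosen with earlier results of these data known. The rule named genes past the threshold, the 5 of smallest p that missed it in each direction and 16 preset hormone genes, of which 1 is not reported here. The other genes were chosen after their values were seen. Lists were described by counts and medians, with no test.

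Same-numbered arrays did not all deviate together (27 pairs, r from −0.36 to 0.43). Of these 7 had r over 0.1, among them 5 of the 6 pairs of arrays numbered 1 and none of those numbered 3, 4 or 5, so replicate numbers were not taken as pairs. No arrays were duplicates. The alternatives changed the pseudocount, normalization, probe set rule, filter (the authors' deposited present calls among them), prior, weights, threshold, block and arrays used.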

Additional observations from a re-analysis of the deposited data

Results flagged for a closer look

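The interaction of both hormone responses itself differed from 0 by limma's test in Klf9 (−1.65) and Sema3c (−1.04). Among probe sets tested one by one it also did so in a probe set without a gene name here (−0.64, adjusted p = 0.0149), which had group means of 510.0, 579, 467 and 655 in control, hypo, hypo+ and hyper. The remaining one was a probe set of Hyou1, a chaperone gene of the endoplasmic reticulum (0.85, adjusted p = 0.0441), with means of 193, 132, 214 and 155. The brighter Hyou1 probe set that represents the gene gave −0.10 (limma adjusted p = 0.836), so the gene's probe sets disagreed.

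Ddx3y, the gene by which arrays with Y-linked signal were picked out, read 696 on hypo+ replicate 1 and 547 on hyper replicate 4, against at most 11.3 on the other arrays.

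Of 216 groups of arrays examined over 54 named genes, 16 held 1 array far from the rest of its group, beyond the limit that chance passes in about 1 of 20 groups. Of these, 5 were on hypo replicate 4: Dio2 (39.7), Dlk1 (1309), Ptch1 (1113), Sim1 (85.2) and Hmx3 (74.6). On hyper replicate 4, 1 of the arrays with Y-linked signal, they were Malat1 (1778), Ndrg1 (671) and Nr4a3 (1152). Hyper replicate 2 stood apart in Sim1 (105) and Rian (1397), and hyper replicate 1 in Ttr (9751). Control replicate 1 did so in Tac1 (1036) and Ndrg1 (510), and control replicate 4 in Epha5 (1952). The others were Blcap on hypo+ replicate 1 (1619) and Drd2 on hypo replicate 2 (97.7). Many of the 54 genes, among them Dlk1, Ptch1, Sim1 and Hmx3, were chosen after their values were seen. The count on an array is therefore no independent evidence that it stands apart.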

How the results depend on the processing

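The count of 2 genes stayed at 2 with a pseudocount of 1, quantile normalization, the mean of probe sets, a mean of at least 100, present calls, and a trend with robust prior. With the replicate number as a block it was also 2, Klf9 and Sema3c. It was 4 with a pseudocount of 100 (Epha3 and Ubald2 added), 1 with arrays centred on their median (Klf9), 1 with only probe sets of 1 deposited symbol (Sema3c, Klf9 not measured), 11 with array weights (6 positive, 5 negative), 1 when both arrays with Y-linked signal were left out (Klf9) and 233 by an unadjusted threshold of 0.05 plus a 1.5-fold change (150 positive, 83 negative). Leaving out 1 array at a time gave 2 to 25: 25 without hypo replicate 4, 4 without control replicate 2 or 4, 3 without control replicate 1, hypo replicate 5 or hyper replicate 2, and otherwise 2. The 6 probe sets became 3 with median centring and 3 without the pair of Y-signal arrays. The cause of these changes was not tested.

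Klf9 passed in 30 of 31 settings, with interactions of −1.84 to −0.20. The exception is the median over its 7 probe sets, where Hyou1 passed in its place. Sema3c passed in 30 of 32 (−1.14 to −0.97). The sign turned for Hyou1 with the mean (0.27) or median (0.85) of probe sets, for Camk4 with the median of probe sets (0.0457), and for Thrb without hypo replicate 1 (−0.0002) or hyper replicate 2 (−0.036), its range with 1 array left out ending at 0.0888. The median of all genes lay between −0.04 and 0.01. The medians of cortical neuron, microglia, deep layer and Y-linked lists changed sign in 13, 10, 8 and 6 settings, those of hypoxia genes in 2, and those of chromatin, endothelial, erythroid and meningeal genes in 1 each.

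The intervals show the limit of 19 arrays: with a median standard error of 0.15, modest interactions of single genes could not be separated from the spread between fetuses. Without the array of hypo replicate 4 some did pass, but that array was singled out because its removal moved the count most.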
